A study of Drosophila melanogaster with 12 samples.

Results

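CAH5, CAH7 and CAH9 are 3 genes annotated as carbonic anhydrases in Drosophila melanogaster, and their transcript profiles in fly heads are described here over 12 collections made in constant conditions. Every probe set that the array's annotation, brought to current symbols, gives to one of these genes alone was taken, which gave 3 probe sets of the 14010 on the array, 1 for each gene (151115_at for CAH5, 149615_at for CAH7 and 150712_at for CAH9), among 10825 genes with a probe set of their own. The genes were chosen on their 24-h profiles in these same 12 arrays, so every value that measures a 24-h pattern in them is given as a description, with no test. The array held 15 carbonic anhydrase genes with a probe set of their own, these 3 and 12 others, on 16 probe sets.

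Flies of the cn bw strain, which carries mutations in the eye pigment genes cinnabar and brown and otherwise serves as a wild type, were kept in darkness throughout. They had been entrained, as pupae and then for 4 more days as adults, to 12 h at 18 °C (the cryophase) alternating with 12 h at 25 °C (the thermophase), and were then held at a constant 25 °C. Heads were collected every 4 h from AA2 to AA46, where AA0 is the onset of the subjective cryophase, that is, of the hours that would have been cold. Each collection of pooled whole heads was measured on 1 Affymetrix Drosophila Genome 1 array, so that day 2 (AA26 to AA46) and day 1 (AA2 to AA22) each held 6 arrays and each of 6 times of day held 2 arrays, 1 from each day. There is no strain without a clock and no unentrained control among these arrays.

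Carbonic anhydrases join carbon dioxide and water to give bicarbonate and a proton, and the reverse, and most of them do so with a zinc ion held in the active site. The enzymes serve pH balance, the removal of carbon dioxide and the transport of ions across epithelia, and their products are handled by bicarbonate carriers, sodium/proton exchangers, proton pumps and the carboxylases that use bicarbonate as a substrate. The fly clock that times daily transcripts is built on a feedback loop in which Clock and Cycle drive period (per), timeless (tim) and vrille (vri), whose proteins act back on that drive.

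Levels are log2 values from RMA, a procedure that corrects background, gives the arrays a common distribution and combines the probes of a probe set. A difference of 1 on this scale is a doubling, and levels are compared within a gene, since probe sets differ in how brightly they bind. Array medians lay between 5.64 and 5.67 log2. The AA46 array stood apart from the other 11: its mean correlation with the other arrays across probe sets was 0.992, against 0.996 or more in the others, and the 3 control probe sets for 18S ribosomal RNA averaged 4.09 log2 on it, against 2.78 to 2.99 log2 elsewhere. Values that rest on AA46 are therefore also given without it.

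Of the 3 genes, CAH5 had the widest daily range. Its levels in the order of collection were 7.55, 6.26, 6.28, 6.55, 7.33 and 7.97 log2 from AA2 to AA22, and 7.77, 6.47, 6.79, 7.23, 7.29 and 8.08 log2 from AA26 to AA46. On each day it was high 2 h into the subjective cryophase, lowest 6 h into it, and highest at the last array, late in the subjective thermophase. The course from a thermophase into the next cryophase was collected once, from AA22 to AA30. The lowest array, AA6, and the highest, AA46, differed by 1.83 log2, or 3.55-fold. The downward course was steeper than the upward one: CAH5 dropped by 1.29 log2 (2.45-fold) between AA2 and AA6 and by 1.30 log2 (2.47-fold) between AA26 and AA30, while no 4-h step upward exceeded 0.79 log2 (1.73-fold).

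A 24-h cosine fitted to the 12 CAH5 values had a peak-to-trough difference of 1.57 ± 0.27 log2 (SE, n = 12 arrays), a 2.97-fold change, with its peak at 21.7 ± 0.65 h of the subjective day. This was the largest fitted peak-to-trough difference among the 11156 probe sets tested. The 24-h terms carried 79.5% of the variance of CAH5 over the arrays, and 11.1% went with a 12-h period, a part of the profile that a symmetrical cosine does not hold. Without AA46, its highest array, the peak-to-trough difference was 1.49 ± 0.30 log2 (2.81-fold) with the peak again at 21.7 h, and the 24-h share was 75.0%.

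CAH7 varied over a smaller span and was highest earlier in the day. Its levels were 8.16, 8.08, 8.42, 8.45, 8.79 and 8.49 log2 from AA2 to AA22, and 8.28, 8.27, 8.47, 8.77, 8.75 and 8.61 log2 from AA26 to AA46. The highest value of day 2 was at AA38 and that of day 1 at AA18, both within the subjective thermophase, and AA30 and AA6 were the lowest arrays of their days. The fitted peak-to-trough difference was 0.58 ± 0.09 log2 (1.5-fold; SE, n = 12 arrays), with the peak at 16.9 ± 0.56 h and a 24-h share of 83.6%. The 12-h period carried 2.25% of the variance, so that the CAH7 profile lay closer to a plain cosine than that of CAH5. Without AA46 these values were 0.58 log2, 16.7 h and 84.3%.

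CAH9 had the smallest range and the earliest peak. It measured 8.18, 8.20, 8.49, 8.61, 8.43 and 8.32 log2 from AA2 to AA22, and 8.27, 8.40, 8.54, 8.58, 8.44 and 8.18 log2 from AA26 to AA46. The levels climbed through the second part of the subjective cryophase, were highest at AA14 and AA38, early in the thermophase, and had come down again by its end. The fitted peak-to-trough difference was 0.39 ± 0.05 log2 (1.31-fold; SE, n = 12 arrays), with the peak at 13.2 ± 0.53 h and a 24-h share of 85.1%. Without AA46, the second lowest CAH9 array, the difference was 0.37 log2 (1.29-fold) and the peak 13.5 h.

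**Figure D1:**
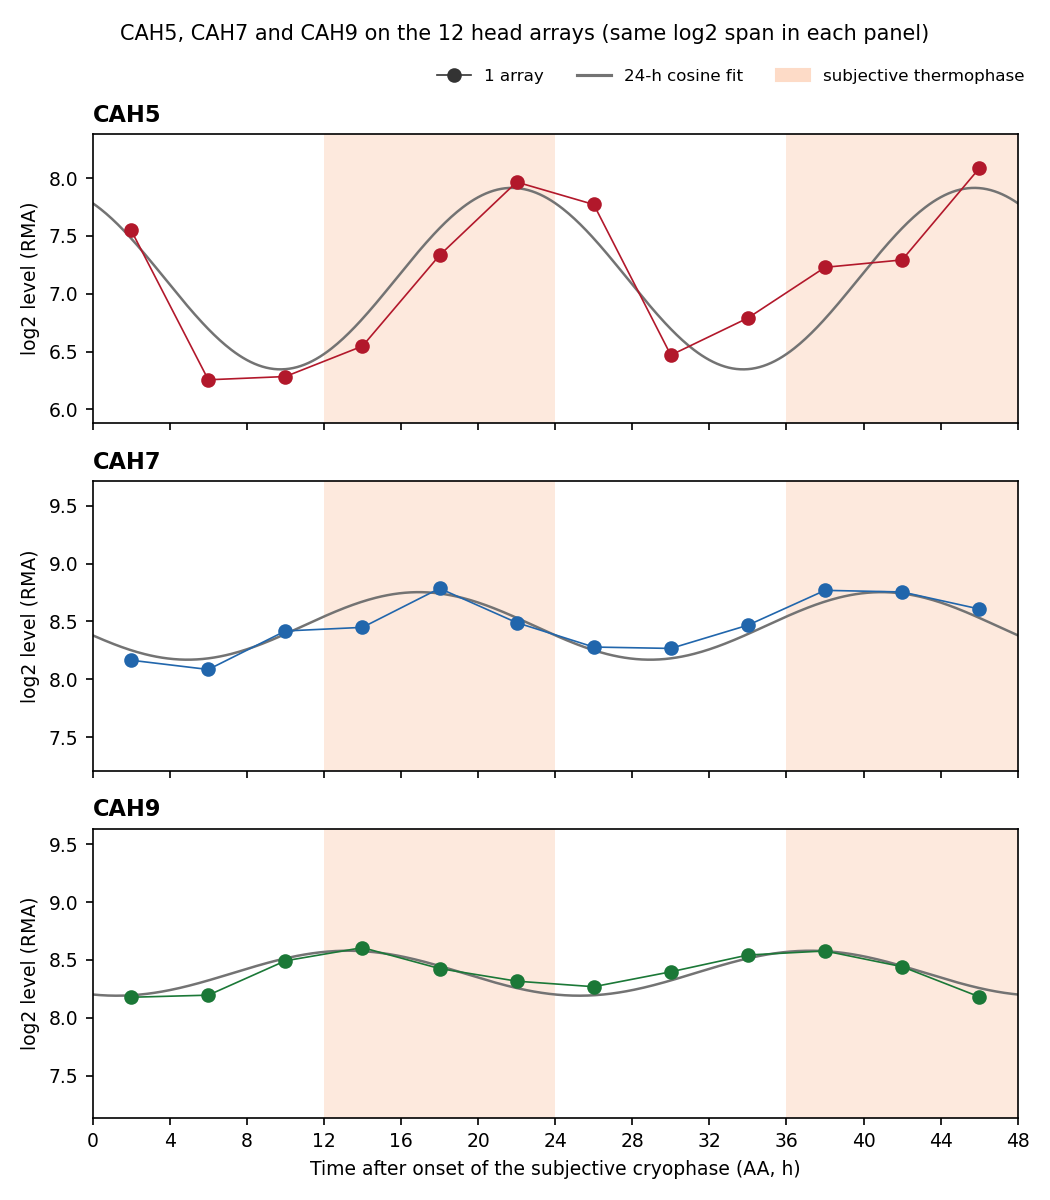
Log2 level of CAH5 (top), CAH7 (middle) and CAH9 (bottom) on each of the 12 head arrays against time after the onset of the subjective cryophase in hours. Points are single arrays joined by thin lines, grey curves are the fitted 24-h cosines, shading marks the subjective thermophase, and every panel spans the same log2 range, so the 1.83 log2 range of CAH5 can be set beside the 0.43 log2 range of CAH9.

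The same profiles can be read by time of day, with 2 arrays for each. The genes were chosen on these values and overlap was not counted for other probe sets, so it is a description only. For CAH5 the mean of both days was highest at 22 h (8.02 ± 0.08 log2, SD, n = 2), followed by 2 h (7.66 ± 0.16), 18 h (7.31 ± 0.03), 14 h (6.89 ± 0.48), 10 h (6.54 ± 0.36) and 6 h (6.36 ± 0.15). The arrays of 22 h, 2 h, 18 h and 14 h did not overlap between neighbours in this order, whereas the arrays of 14 h and 10 h, and those of 10 h and 6 h, overlapped. For CAH7 the order was 18 h (8.77 ± 0.02 log2), 14 h (8.61 ± 0.23), 22 h (8.55 ± 0.08), 10 h (8.44 ± 0.04), 2 h (8.22 ± 0.08) and 6 h (8.18 ± 0.13). Here 22 h lay above 10 h and 10 h above 2 h without overlap, while 18 h overlapped 14 h, 14 h overlapped 22 h and 2 h overlapped 6 h. For CAH9 it was 14 h (8.59 ± 0.02 log2), 10 h (8.52 ± 0.04), 18 h (8.43 ± 0.01), 6 h (8.30 ± 0.14), 22 h (8.25 ± 0.10) and 2 h (8.22 ± 0.06), with the first 4 apart from each other and the last 3 overlapping.

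Averaged over the former warm and cold hours, the contrast depended on where in the day each peak lay. CAH7 averaged 8.64 ± 0.15 log2 in the subjective thermophase (lowest 8.45, median 8.68, highest 8.79) and 8.28 ± 0.15 log2 in the subjective cryophase (lowest 8.08, median 8.27, highest 8.47; SD, n = 6 each), a difference of 0.36 log2 in which only 1 cryophase array, AA34, reached the lowest thermophase array. CAH5 averaged 7.41 ± 0.56 log2 in the thermophase (lowest 6.55, median 7.31, highest 8.08) and 6.85 ± 0.66 log2 in the cryophase (lowest 6.26, median 6.63, highest 7.77), and the ranges overlapped because AA2 and AA26 were high and AA14 was low. CAH9 averaged 8.42 ± 0.16 and 8.35 ± 0.15 log2 in thermophase and cryophase, with nearly the same range in both (8.18 to 8.61 and 8.18 to 8.54 log2), since its peak fell close to the change from one phase to the other.

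The 3 fitted peaks were hours apart. CAH7 peaked 3.68 ± 0.75 h after CAH9, CAH5 peaked 4.83 ± 0.79 h after CAH7, and CAH5 peaked 8.50 ± 0.92 h after CAH9 (SE from the residuals of the 12 arrays). Over those arrays the Pearson r was 0.50 between CAH7 and CAH9, 0.34 between CAH5 and CAH7, and -0.44 between CAH5 and CAH9, and without AA46 it was 0.65, 0.28 and -0.31 for the same pairs. Fits to each day alone have 6 arrays each and use the arrays that chose the genes, so they give no independent support. In the order CAH9, CAH7, CAH5 their peaks were at 12.1 ± 0.52, 16.6 ± 0.28 and 21.5 ± 1.3 h on day 2, and 14.3 ± 0.62, 17.2 ± 0.91 and 21.9 ± 0.54 h on day 1. CAH9 thus had the largest shift between days in its fitted peak. Its day 2 fit includes AA46, the lowest CAH9 array of that day, and day 2 was not fitted without it.

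Clock genes on the same arrays give these times a scale. The fitted peaks of tim, per and vri, which encode feedback components, were at 17.1, 15 and 14.4 h, that of cry, a blue-light photoreceptor, at 7.5 h and that of Clk, the activator, at 3.4 h. Clk did not pass the filter on low values described below, and its peak had an SE of 1.76 h. Its local permutation p, by the test described below, was 0.153, or 0.0194 without AA46. CAH7 differed from tim by -0.15 ± 0.97 h and came 1.94 ± 0.67 h after per. CAH9 came 1.2 ± 0.63 h before vri and 1.73 ± 0.79 h before per. CAH5 came 4.67 ± 1.07 h after tim, in the interval of the day between the peaks of tim and Clk, 5.67 ± 1.91 h before that of Clk.

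**Figure D2:**
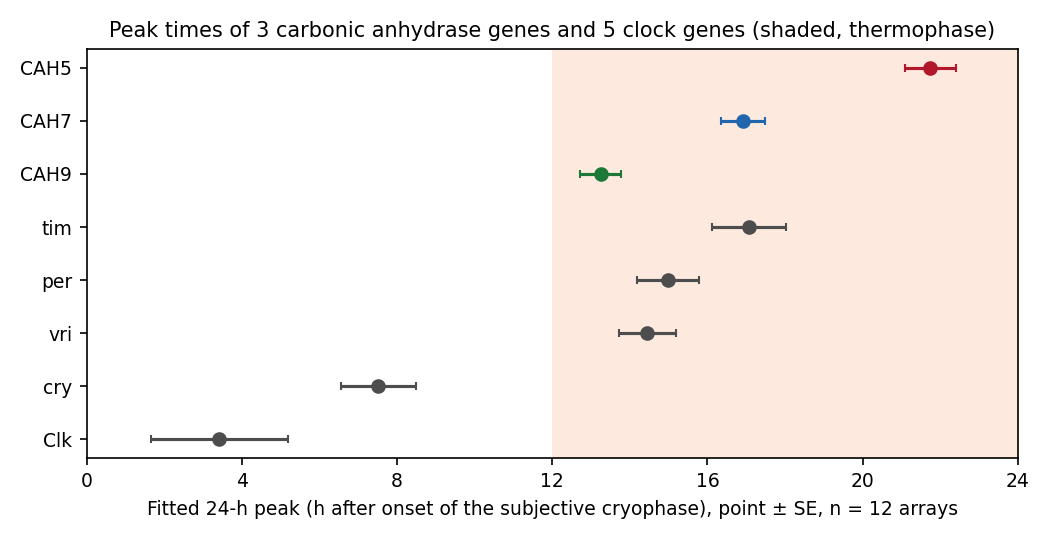
Fitted time of the 24-h peak for CAH5, CAH7 and CAH9 and for 5 clock genes, in hours from AA0. Points are fitted peaks and bars are standard errors over 12 arrays; CAH7 at 16.9 h lies beside tim at 17.1 h, CAH9 at 13.2 h lies before vri and per, and CAH5 at 21.7 h is the last of the 8.

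Whether levels differed between the days was tested across the whole array, because a day difference enters neither the 24-h cosine nor the 24-h sine. A choice of genes with a large 24-h share still favours small differences of every other kind. The test was limma with time of day as a block and Benjamini-Hochberg adjustment over the 11156 probe sets in which more than 50% of the values exceeded the 20th percentile of their array. All 3 genes passed that filter. An adjusted p under 0.05 was reached by 46 probe sets higher on day 2 (0.412%) and 134 lower (1.2%), and by none of the 3 genes. These counts were 170 and 209 without AA46, or without AA22 of the same time of day, and 11 to 18 and 66 to 89 without 1 of the other arrays.

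CAH5 averaged 7.27 ± 0.60 log2 on day 2 and 6.99 ± 0.72 log2 on day 1 (SD, n = 6 arrays each). It was higher on day 2 at 5 of 6 times of day, by up to 0.68 log2 at 14 h, and lower by 0.04 log2 at 18 h. The difference within time of day was 0.28 ± 0.08 log2, with an unadjusted limma p of 0.00435 and an adjusted p of 0.115. With arrays weighted by their quality in limma it was 0.30 log2 at an adjusted p of 0.0385, which passes the threshold, and over all alternatives its adjusted p ran between 0.0385 and 0.727.

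For CAH7 the means were 8.52 ± 0.22 log2 on day 2 and 8.40 ± 0.25 log2 on day 1, with 5 of 6 times of day higher on day 2, and for CAH9 they were 8.40 ± 0.15 and 8.37 ± 0.17 log2, with 4 of 6 higher. The CAH7 difference of 0.13 ± 0.05 log2 had a limma adjusted p of 0.283. Its widest pair was that of 14 h, where day 2 was 0.32 log2 above day 1, and without AA14 or AA38 the difference was 0.09 log2. The CAH9 difference was 0.03 ± 0.05 log2 (limma adjusted p = 0.838). No difference between days was therefore called for any of the 3 genes, and for CAH5 the call depended on how the arrays were weighted.

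**Figure D3:**
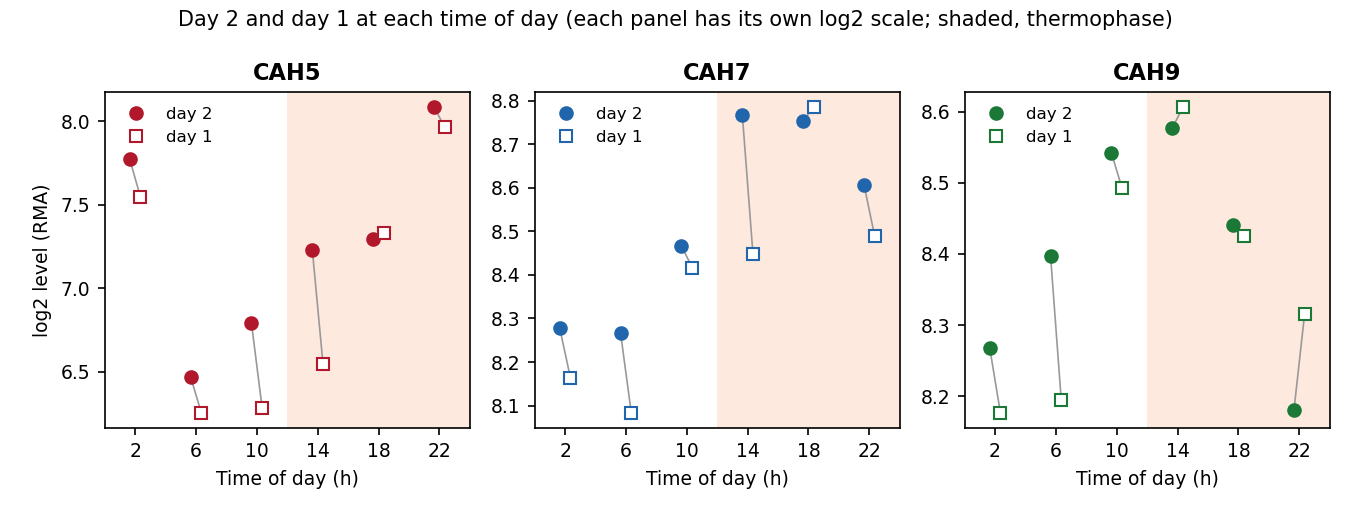
Log2 level of CAH5, CAH7 and CAH9 at each of the 6 times of day on day 2 (filled circles) and day 1 (open squares), with a grey line joining the 2 arrays of a time of day and shading over the thermophase; each panel has its own log2 axis. CAH5 and CAH7 were higher on day 2 at 5 of 6 times and CAH9 at 4 of 6, with the widest gap of CAH5, 0.68 log2, at 14 h.

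Markers of cell types in the head were set beside these profiles. Of 4 photoreceptor markers listed, trp (a channel of the light response) and Arr2 (an arrestin) had a probe set of their own. Their mean ranged over 11.76 to 12.06 log2 in the thermophase and 11.65 to 11.92 log2 in the cryophase. Over the 12 arrays it correlated with CAH7 at r = 0.80, with CAH5 at 0.62 and with CAH9 at 0.15 (0.81, 0.51 and 0.42 without AA46), all points sharing the same pools of heads. The 4 fat body markers (Yp1, Yp2, Yp3 and fit, the first 3 encoding yolk proteins) averaged 11.96 to 12.66 log2 on day 2 and 12.69 to 13.18 log2 on day 1. A list made up mostly of yolk protein genes does not measure the fat body as a whole. The muscle markers Act88F and up, of which Act88F was below the filter, averaged 5.83 log2 on AA46 and 5.20 to 5.36 log2 on the other 11 arrays. The glial markers repo, moody and nrv2 stayed between 6.08 and 6.39 log2. The neuron markers elav, nSyb and Appl, of which elav was below the filter, averaged 5.71 to 5.97 log2. With CAH5, CAH7 and CAH9 in order, r was 0.31, -0.36 and -0.48 for neuron (0.40, -0.35 and -0.58 without AA46). It was -0.45, -0.54 and -0.21 for fat body (-0.33, -0.52 and -0.44). For muscle it was 0.52, 0.23 and -0.46 (0.32, 0.17 and -0.26), and for glia 0.01, 0.06 and 0.02 (0.31, 0.19 and -0.24). The part of these markers in the profiles of CAH5, CAH7 and CAH9 was not tested, and in RNA from whole heads fewer cells of a type and less RNA per cell cannot be told apart.

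Markers of other body parts bear on how clean the heads were. The digestive proteases alphaTry, betaTry, Jon25Bi and Jon65Ai averaged 5.53 to 5.75 log2 over the arrays and all 4 passed the filter. Acp26Aa and betaTub85D, of the male reproductive tract, did not pass it, while Mst87F and SP did, and the eggshell genes Cp15, Cp36 and Vm26Aa averaged 6.38 to 6.65 log2. Their part in the results was not tested.

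Next to the 3 genes, the other members of the family had small fitted daily changes, with medians close to those of all tested probe sets. Choosing the 3 genes on their 24-h profiles favours weaker profiles among the rest, so the contrast carries no test. Of 14 other carbonic anhydrase genes listed, 12 had a probe set of their own and 10 of these passed the filter, CAH13 and CAH14 being below it. For these genes the 24-h share was tested by a permutation of the time order, in which the local p is the proportion of 100000 random orders that gave as large a share. None of the 10 had a local p under 0.05, against 682 of all 11156 tested probe sets (6.11%, with 557.8 expected by chance). Their median 24-h share was 15.6%, beside 13.5% over all tested probe sets, and their median peak-to-trough ratio 1.06-fold, beside 1.07-fold. Leaving out 1 array brought 1 gene to a local p under 0.05 in 3 cases, CAH3 without AA2 or AA14 and CAH16 without AA46 (permutation p = 0.0337). CAH5, CAH7 and CAH9 all had a local p under 0.05, as their choice implies. After adjustment over all tested probe sets the permutation test called 0 of 11156 (0%), and a limma F test of the cosine called 33 (0.296%), CAH5, CAH7 and CAH9 among them; nothing is read from this, since the same 24-h values chose them.

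The family member closest to the 3 genes by 24-h share was CAH3, at 41.6%, with a peak-to-trough difference of 0.21 ± 0.08 log2 (1.16-fold), a peak at 13.1 h and a local permutation p of 0.0915. Its values were 6.95, 6.93, 6.98, 6.90, 6.89 and 6.91 log2 from AA2 to AA22, and 6.69, 6.84, 7.06, 7.09, 7.07 and 6.75 log2 from AA26 to AA46. CAH3 thus spanned a wider range on day 2 than on day 1. Over the 12 arrays CAH2 had the largest fitted ratio of the others, 1.18-fold (local permutation p = 0.433). It had 1 low array, AA46, at 7.73 log2, against 8.09 to 8.52 log2 on the rest. Without AA46 the CAH2 ratio was 1.11-fold, below those of CAH16 (1.14-fold) and CAH3 (1.14-fold). The remaining ratios over the 12 arrays lay between 1.03-fold for CAH6 and 1.12-fold for CAH16. CARPB, 1 of 2 genes listed for carbonic anhydrase-related proteins, had 2 probe sets, whose ratios were 1.04-fold and 1.11-fold, and CAHbeta, of the unrelated beta class of these enzymes, had a ratio of 1.06-fold.

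**Figure D4:**
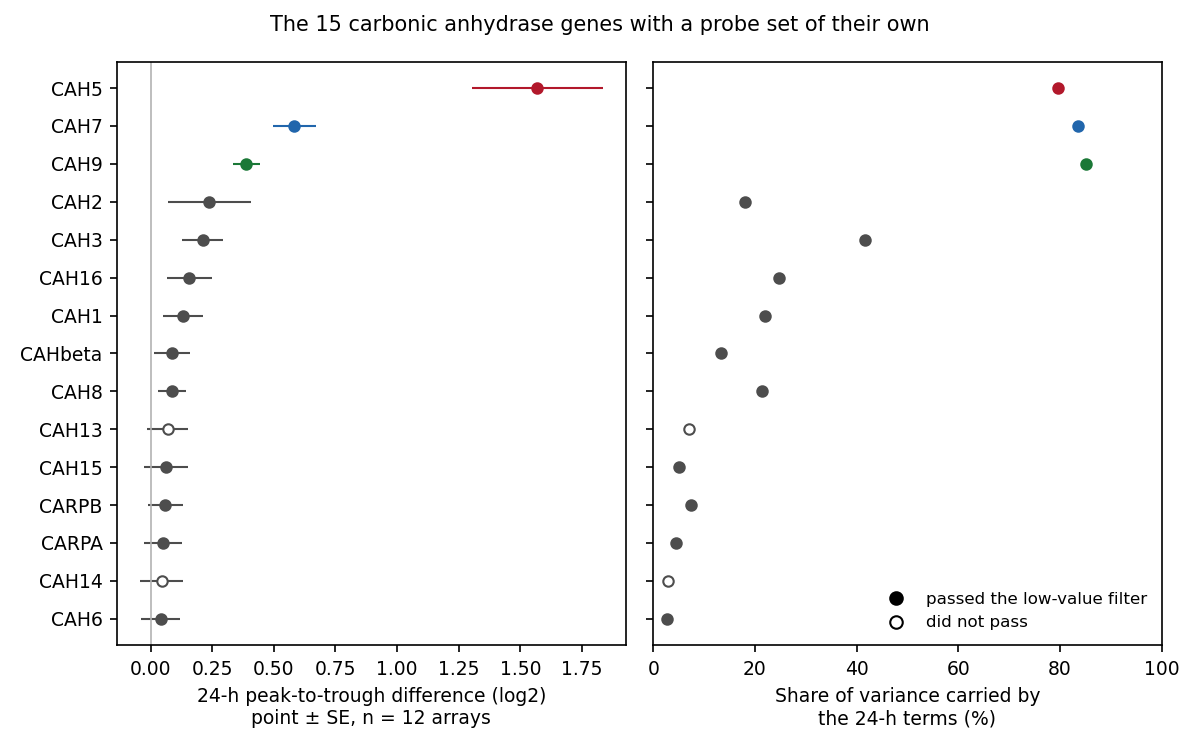
Fitted 24-h peak-to-trough difference in log2 (left; point ± SE, n = 12 arrays) and percent of variance carried by the 24-h terms (right) for the 15 carbonic anhydrase genes with a probe set of their own; open points did not pass the filter on low values. CAH5, CAH7 and CAH9, chosen on these values, have shares of 79.5% to 85.1%, and the 10 others that passed lie between 2.68% and 41.6%.

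Between days, none of the 10 other carbonic anhydrase genes was called by limma, and 1 had an unadjusted p under 0.05. That was CAH1, whose values were 11.87, 11.76, 11.81, 11.75, 11.91 and 11.91 log2 on day 2 and 11.73, 11.66, 11.71, 11.55, 11.73 and 11.73 log2 on day 1, a difference of 0.15 log2 (limma adjusted p = 0.120). CAH1 was higher on day 2 at every time of day. Across all tested probe sets 1647 had an unadjusted p under 0.05 for the day.

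CAH5, CAH7 and CAH9 all lie on chromosome arm 3R in the RefSeq annotation (Release 6 plus ISO1 MT), at separate places. The protein-coding genes next to each were looked up after the profiles were known. CAH5 has CAH16 and then CAH6 on one side, and ppk24 and pHCl-2, an acid-sensitive chloride channel, on the other. The 3 carbonic anhydrase genes of this stretch differed in their fitted ratio, which was 2.97-fold for CAH5, 1.12-fold for CAH16 and 1.03-fold for CAH6. CAH16 and CAH6 averaged 5.0 and 4.35 log2, against 7.13 log2 for CAH5. The filter cut-off was 4.05 to 4.12 log2, so CAH6 lay close to it. Whether a small ratio at such a level reflects a weak signal was not tested. CAH16 measured 5.0, 4.98, 4.99, 5.0, 4.74 and 5.20 log2 on day 2 and 5.09, 5.13, 5.01, 5.01, 4.92 and 4.94 log2 on day 1, with no fall at 6 h. Of the 4 neighbours of CAH5, pHCl-2 alone had a local permutation p under 0.05 (0.0456, 1.13-fold, peak 19.5 h), where 6.11% of all tested probe sets did. The levels of pHCl-2 and ppk24 were also low, averaging 4.35 and 4.59 log2.

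The neighbours of CAH7 (Alp13, Fmr1, gammaSnap2 and ATPsynepsilonL) had ratios of 1.03-fold to 1.12-fold, of which Alp13 was below the filter, and those of CAH9 (eater, Jhbp11, gb and CG5815, the last below the filter) ratios of 1.05-fold to 1.14-fold. None of these 8 had a local permutation p under 0.05. Of those that passed, eater (4.24 log2) and gammaSnap2 (4.46 log2) averaged little above the filter cut-off. Jhbp11, directly beside CAH9, had a fitted peak at 14.6 h with a ratio of 1.13-fold (local permutation p = 0.195).

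Genes that act on the same ions were taken in 3 lists, and their counts are set against the 6.11% of all tested probe sets with a local permutation p under 0.05 and the median 24-h share of 13.5%. All 8 genes listed for bicarbonate and proton exchange passed the filter, and 1 had a local permutation p under 0.05. That was Nhe1, a sodium/proton exchanger, with a ratio of 1.17-fold, a peak at 3.1 h and a permutation p of 0.0229. The Nhe1 permutation p was above 0.05 without AA14, AA26 or AA38 (highest 0.0695), and 0.00312 without AA46 (1.18-fold). The median 24-h share of the 8 genes was 19.8%. Of 17 vacuolar proton pump genes 15 were measured and passed, none had a local p under 0.05, and their median share was 8.66%. Of the 5 carboxylases that use bicarbonate, 1 had a local permutation p under 0.05: PCB, pyruvate carboxylase, which replenishes oxaloacetate, with a ratio of 1.33-fold, a peak at 4.9 h and a permutation p of 0.0161. The median 24-h share of the carboxylases was 25.3%. Neither Nhe1 nor PCB passed after adjustment over all tested probe sets. No gene of these 3 lists was called between days.

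For each of the 3 genes the 5 genes with the most similar profiles were taken by Pearson r over the 12 arrays, out of 8895 other named genes that passed the filter. The most similar to CAH5 were CG42269 (r = 0.87), ninaG (0.86), which encodes an oxidoreductase needed for the visual chromophore, CtsL1 (0.86), a lysosomal cysteine protease, CG13631 (0.86) and CG31036 (0.85). The 2.97-fold ratio of CAH5 was well above theirs, 1.11-fold to 1.28-fold, and their peaks lay between 20.8 and 23.3 h. Without AA46, 3 of these 5 (CG13631, ninaG and CG42269) were still among the 5 most similar.

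Closest to CAH7 were CG6012 (r = 0.93), CG8012 (0.91), pkm (0.90), CG13255 (0.90) and CG7135 (0.90), with ratios of 1.16-fold to 1.59-fold and peaks between 15.9 and 18.0 h. CG7135, at 1.59-fold, thus had a wider daily range than CAH7 itself. Without AA46, CG6012, CG8012 and CG7135 stayed among the 5. Closest to CAH9 were Usp8 (r = 0.89), a deubiquitinating enzyme, vri (0.87), the clock repressor, chp (0.86), a cell-surface protein of photoreceptors, Gclm (0.85), a subunit of the enzyme that starts glutathione synthesis, and bond (0.85), a fatty acid elongase. CAH9 had a ratio of 1.31-fold, against 1.88-fold for Usp8 and 1.83-fold for vri, and these 2 stayed among its 5 without AA46, where r with vri was 0.93. With 12 arrays taken in time order, any genes that peak together correlate, so these r values describe similarity in timing and carry no test.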

How the data were processed

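For each of 12 arrays the authors deposited log2 expression values from RMA (version not given in the sources used here). RMA brings the arrays to 1 distribution, which hides any change common to most genes, and the number of arrays limits the precision. The labels do not say that the collections were separate rearings, so the p-values may reflect technical spread.

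Of 14010 probe sets, 44 were controls. Gene names follow the platform's annotation, brought up to date with RefSeq: 12442 probe sets had 1 symbol, 327 several and 1197 none. No build is named for the array's design, so no coordinates are given. Probe sets with more than 50% of values above the 20th percentile of their array (4.05 to 4.12 log2) were tested, 11156 in all.

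The members and lists were chosen with earlier results of these data known. Rhythm was measured as the share of variance carried by a 24-h cosine and sine, with a local p from 100000 random time orders (smallest possible 1e-05). Peak times and sizes come from least squares. Day 2 was compared with day 1 by limma 3.58.1 (R 4.3.3) with time of day as a block and Benjamini-Hochberg adjustment. Other steps used numpy 2.4.6 and pandas 2.3.3. Named were CAH5, CAH7 and CAH9, all listed carbonic anhydrases, the 5 genes most alike each, up to 4 genes of each other list with the lowest local p under 0.05, and 5 clock genes; further genes are said to be chosen later. The probe set with the highest mean stood for a gene. The procedures were tested on simulated data. Alternatives were a limma F test of the cosine, array weights, no time-of-day block, median centring, a linear scale, removal of a trend, no filter and leaving out each array.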

Additional observations from a re-analysis of the deposited data

How the results depend on the processing

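Of 126 alternative values of the main results 121 kept their count or their side of the threshold, or moved by less than the spread between arrays. A change of sign in a day difference that was not called counted as unchanged, as for CAH9 at -0.0014 log2 without AA6 or AA30. With time of day as a block, leaving out either array of a pair gave the same day difference. These alternatives were therefore not all separate. With a linear trend removed before the fit, the CAH7 peak-to-trough difference was 0.43 log2 (1.35-fold), and the cause was not tested. With array weights the CAH5 day difference was 0.30 log2 at a limma adjusted p of 0.0385. Leaving out 1 array at a time gave 0 to 1 other carbonic anhydrase genes with a local permutation p under 0.05: CAH3 without AA2 or AA14 and CAH16 without AA46.

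Leaving out 1 array at a time gave peak-to-trough differences of 1.47 to 1.76 log2 for CAH5, 0.54 to 0.66 for CAH7 and 0.37 to 0.42 for CAH9, and day differences of 0.20 to 0.35, 0.09 to 0.16 and -0.0014 to 0.07 log2 in the same order. Over all alternatives the fitted peaks lay between 21.5 and 22.4 h for CAH5, 16.5 and 17.1 h for CAH7 and 12.7 and 13.5 h for CAH9. Limma adjusted p for the day ran between 0.146 and 0.666 for CAH7 and between 0.439 and 0.996 for CAH9. Of 666 further alternative values 623 were counted as unchanged. Here too a change of sign in an uncalled day difference counted as unchanged, as for CAH2 (-0.12 to 0.04 log2). Nhe1 lost its local p under 0.05 without AA14, AA26 or AA38.

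The number of probe sets called between days was not stable: 11 to 192 higher and 66 to 258 lower on day 2, both highest with array weights, and 170 and 209 without AA46. The limma F test of the cosine called 33 probe sets and the adjusted permutation test 0. Each gene has 1 probe set, so no second probe set could be compared. With 2 arrays per time of day, small profiles like those of the other carbonic anhydrases may have gone undetected.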
